A study of Mus musculus with 4 samples.

Results

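The genes described are the members of the Hox clusters and of the homeobox and paired box families that pattern the hindbrain and midbrain, read in 4 mouse cerebellar tumors. They were taken by gene symbol, as every probe set with a single symbol of the Hox, Otx, En, Gbx, Lhx, Lmx1, Meis, Pbx, Irx, Pax or Barhl families, which gave 45 probe sets of 30 genes among 24679 probe sets of 13320 genes. A probe set is the group of short oligonucleotides with which the array reads a transcript. En1, the Gbx and Lmx1 genes and most Hox genes were not among the matched probe sets and were not analysed here. This describes the deposited table, which held 29304 probe sets, and not what the array can read. The floor and the shares of all genes and probe sets given below refer to that table.

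All 4 tumors carry the genotype label Chd7-het and the background mixed CD1xC57BL/6, and they are called tumors 1, 2, 4 and 5 after the numbers in their titles. Total RNA from 1 tumor was read on each array, an Affymetrix Mouse Genome 430 2.0. Chd7 encodes a chromatin remodelling ATPase. The labels name no other allele, no agent and no promoter or Cre behind the genotype, and give neither age nor sex, and no control tissue or tumor of another genotype was analysed here. The tumors form 1 labelled group, so levels are described across tumors and each tumor was set against the other 3. In bulk tissue, fewer cells of a type and less RNA per cell cannot be told apart.

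In the embryo the posterior limit of Otx2 and the anterior limit of Gbx2 set the border between midbrain and hindbrain, and the signals made there, with the engrailed genes, give rise to the cerebellum. The cerebellum grows from the foremost hindbrain segment, which lies ahead of the Hox domains, whereas the segments behind it are told apart by the Hox genes acting with Pbx and Meis partners. Later, Pax6, Barhl1, Meis1 and Pbx3 are known from granule cells, Lhx1 and Lhx5 from Purkinje cells, and Otx2 from progenitors of the posterior cerebellum and from choroid plexus.

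A gene was called on in a tumor when a probe set lay above a floor of 5.12 on the log2 scale, or 34.8 on the linear signal scale, and on in all 4 when the same probe set did so in every tumor. The floor is the median over arrays of the 40th percentile of all probe sets. The 8 probe sets of olfactory receptor genes in the table read at most 2.98. Signals between 2.98 and the floor, such as those of Meis3 and Pbx4, exceed these and were still not called on. A gene that is not on is therefore not shown to be without transcript. By this rule 12 of the 30 genes were on in all 4 tumors, against 69.2% of all genes, 5 were on in some tumors, and 13 (43.3%) were on in none, against 21.9% of all genes. By probe set, 17 of the 45 (37.8%) were on in all 4, against 61.0% of all probe sets. The 12 were En2, Otx2, Barhl1, Barhl2, Pax6, Lhx1, Lhx2, Meis1, Pbx2, Pbx3, Irx3 and Irx5. Levels of different probe sets were not compared with each other, since each probe set has its own efficiency.

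**Figure D1:**
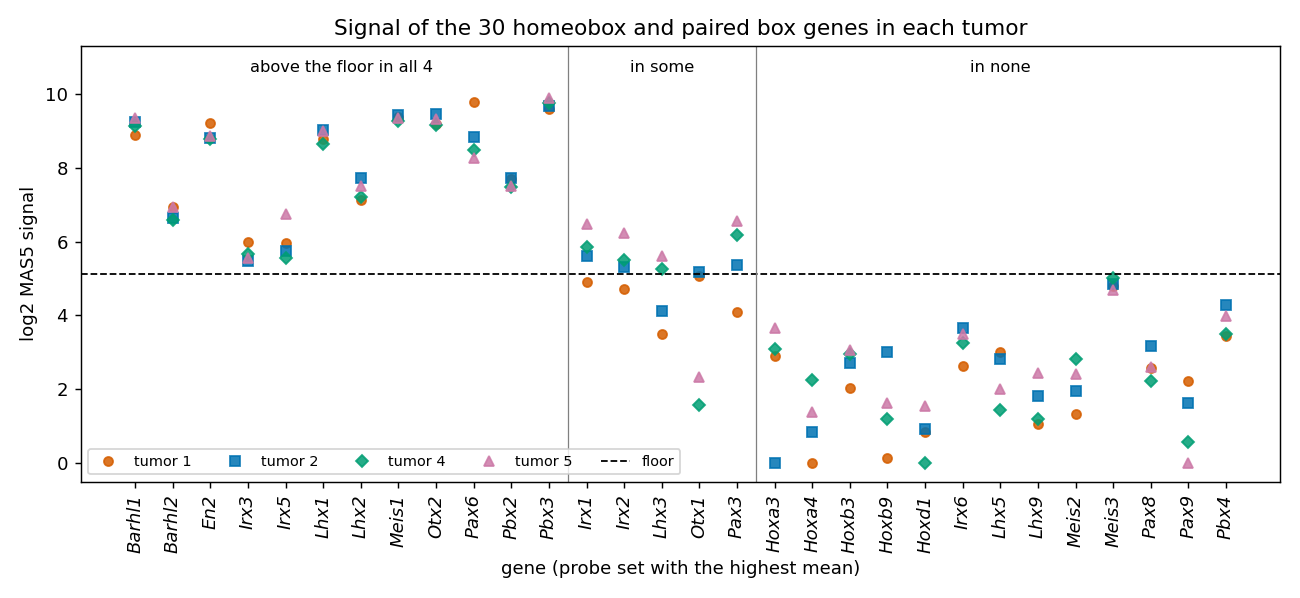
Log2 MAS5 signal of the 30 genes in each tumor, by the probe set with the highest mean of each gene; markers are tumors and the dashed line is the floor of 5.12. The 12 genes at the left lie above the floor in all 4 tumors, and the 13 at the right, 5 Hox genes among them, lie below it in every tumor.

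All 30 genes matched an entry of RefSeq's genes on GRCm38.p6, spread over 11 chromosomes. Promoters in the RefSeq table of the same assembly were found for 19 of the genes, 26 promoters in all, and were read over the 250 bases upstream of the start. The count of CpG dinucleotides had a median of 13 in the promoters of these genes and 6 in all 32851 promoters of the table, but was 4 in Lhx9 and 6 in Pax8 and in 1 promoter of Otx2. The median was 14 for 15 promoters of 9 genes on in all 4 tumors and 9.5 for 8 promoters of 8 genes on in none. It was highest, at 19, for 3 promoters of 2 genes on in some tumors, so it did not follow the order of the calls. Genes with several promoters, such as Otx2, count more than once in these medians. The windows, motifs and examples were chosen after seeing the data. The upstream sequences of 2 genes that were on and 2 Hox genes that were not are shown as examples, 5′ to 3′ on the strand of the gene, with CpG dinucleotides in capitals. Otx2 lies at chr14:48667645-48667894 (minus strand, 6 CpG, the fewest of its promoters) and Pax6 at chr2:105668646-105668895 (plus strand, 15 CpG). Hoxa3 lies at chr6:52213068-52213317 (minus strand, 18 CpG) and Hoxd1 at chr2:74762730-74762979 (plus strand, 24 CpG).
Otx2: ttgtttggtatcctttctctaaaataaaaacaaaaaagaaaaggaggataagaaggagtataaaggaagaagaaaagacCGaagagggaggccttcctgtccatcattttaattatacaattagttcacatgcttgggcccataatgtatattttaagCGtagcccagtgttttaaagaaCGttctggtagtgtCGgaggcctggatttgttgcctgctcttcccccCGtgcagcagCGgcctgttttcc
Pax6: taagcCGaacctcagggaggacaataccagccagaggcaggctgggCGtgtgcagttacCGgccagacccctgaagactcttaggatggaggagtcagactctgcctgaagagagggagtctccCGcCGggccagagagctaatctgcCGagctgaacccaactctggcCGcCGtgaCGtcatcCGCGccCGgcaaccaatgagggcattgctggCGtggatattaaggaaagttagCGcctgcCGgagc
Hoxa3: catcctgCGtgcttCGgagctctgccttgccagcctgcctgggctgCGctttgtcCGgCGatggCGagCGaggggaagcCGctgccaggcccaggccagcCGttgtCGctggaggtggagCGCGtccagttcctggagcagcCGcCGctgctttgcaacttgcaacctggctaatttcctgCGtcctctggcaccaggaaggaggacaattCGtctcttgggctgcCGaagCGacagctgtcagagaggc
Hoxd1: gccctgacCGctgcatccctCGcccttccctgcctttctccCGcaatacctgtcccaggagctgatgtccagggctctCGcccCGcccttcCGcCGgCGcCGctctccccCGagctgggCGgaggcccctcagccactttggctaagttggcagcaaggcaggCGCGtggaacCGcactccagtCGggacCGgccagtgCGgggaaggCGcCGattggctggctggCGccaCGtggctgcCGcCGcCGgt

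These upstream windows were searched on both strands for letters known from homeodomain and GLI binding. TAATCC, bound by Otx proteins, was in 2 of the 26 promoters and in 6.25% of all promoters: 1 of Otx2's own 4 promoters, 211 bases upstream of that start, and 1 of the 2 of Barhl1, 53 bases upstream. TGACAG, bound by Meis proteins, was in 5 of the 26 (Hoxa3, Lhx1, Lhx9, Pax6 and Pax9) and in 15.9% of all promoters. TGATNNAT, bound by Hox and Pbx proteins together, the palindromic site of paired-class homeodomain dimers and GACCACCCA, the GLI site, were in 0 of the 26, and in 7.68%, 0.463% and 0.225% of all promoters. A match describes letters and not a bound site.

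The 5 Hox genes, which give the hindbrain behind the cerebellum and the trunk their segment identity, were all below the floor in every tumor. Hoxa3, a 3′ gene of the A cluster, had log2 signals of 2.91, 0.00, 3.09 and 3.67 (tumors 1, 2, 4 and 5). Its neighbour Hoxa4, with no protein-coding gene between them, read 0.00, 0.85, 2.26 and 1.38. Hoxb3 read 2.04, 2.72, 2.94 and 3.07. These 3 genes, and Hoxd1 as well, were each highest in tumor 4 or 5, but at signals below the floor, so no difference between tumors is read from them. Hoxb9, a 5′ gene of the B cluster, read 0.14, 3.0, 1.20 and 1.63, and Hoxd1, a 3′ gene of the D cluster, 0.85, 0.93, 0.00 and 1.54. No Hox signal on any array exceeded 12.7 on the linear scale, against the floor of 34.8, and each of the 5 genes was read by 1 probe set. No order along a cluster could be read from these levels.

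Of the other genes with no signal above the floor, Lhx5 and Lhx9, LIM factors of neuronal subtypes, read between 1.07 and 3.02. Meis2, a Hox cofactor, read between 1.32 and 2.81 on its single probe set, and Pbx4 between 3.43 and 4.28. Pax8, a paired box gene of the midbrain-hindbrain border and of thyroid and kidney, read between 0.00 and 3.17 over 2 probe sets, and Pax9 between 0.00 and 2.23. Irx6 read between 2.63 and 3.66. Meis3 came nearest to the floor, at 4.80, 4.85, 5.00 and 4.68 in tumors 1, 2, 4 and 5, and the lowest signal of a probe set on in all 4 was that of Irx3 in tumor 2, at 5.48, followed by 5.50 in a Meis1 probe set in tumor 4.

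The genes of the midbrain-hindbrain border differed by less than 2-fold between tumors where they were on. Otx2, whose posterior limit marks the border, read 9.18, 9.46, 9.16 and 9.33 in tumors 1, 2, 4 and 5 (9.28 ± 0.14, SD, n = 4), a range of 1.22-fold. En2, the engrailed gene of the cerebellar primordium and of granule cells, read 9.20, 8.80, 8.77 and 8.87 (8.91 ± 0.20, SD, n = 4), and tumor 1 was highest, above the others by 0.39 (SE 0.15), a difference that did not pass (limma adjusted p = 0.348). Otx1, which acts in forebrain and midbrain, read 5.06 and 5.19 in tumors 1 and 2, on either side of the floor, and 1.58 and 2.32 in tumors 4 and 5. On the linear scale these are signals of 33.3, 36.5, 3.0 and 5.0, of which only that of tumor 2 exceeded the floor.

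Markers of other tissues were read beside Otx2, which choroid plexus also expresses. Of 9 choroid plexus genes measured, 5 were highest in tumor 5 and above the floor there: Ttr, the transthyretin gene, read 3.12, 2.14, 5.70 and 12.16 in tumors 1, 2, 4 and 5, and Folr1, Kl, Kcnj13 and Sostdc1 were above the floor in tumor 5 only. The summed linear signal of the 9 was 625, 201, 190 and 5336. Aqp1, Cldn2 and F5 were below the floor in all 4. Clic6 was above it in all 4, at 9.15, 7.11, 6.29 and 8.73, and was highest in tumor 1. Most of the sum in tumor 1 was the signal of Clic6. Otx2 in tumor 5 lay between tumors 1 and 2, and its difference from the other 3 was 0.07 (SE 0.19, limma adjusted p = 0.975). The part of choroid plexus RNA in the Otx2 signal was not tested.

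The Barhl genes, transcription factors of the rhombic lip that act in migrating granule neurons, were on in every tumor. Barhl1 read 8.88, 9.24, 9.14 and 9.36 by its brighter probe set, 1418812_a_at (9.16 ± 0.20, SD, n = 4). Its other probe set, 1418811_at, read 7.88, 8.24, 7.99 and 7.72, so tumor 5 was highest by the first and lowest by the second. Barhl2 read 6.95, 6.63, 6.59 and 6.95 (6.78 ± 0.19, SD, n = 4). Ranges were 1.39-fold, 1.43-fold and 1.28-fold. That no Barhl gene passed in any tumor does not show that their levels were steady.

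Pax6, a paired box factor of granule cell progenitors and their neurons, was the member that passed in a test of 1 tumor against the rest. Its brightest probe set, 1419271_at, read 9.78, 8.82, 8.48 and 8.26 in tumors 1, 2, 4 and 5, and 1452526_a_at read 8.17, 7.01, 6.70 and 6.51. Tumor 1 was highest by both. A further probe set, 1425960_s_at, read 6.09 in tumor 1 and between 4.22 and 4.55, below the floor, in the others, which makes tumor 1 at least 1.96-fold above the lowest. The last 2 of its 5 probe sets, 1437816_at and 1456342_at, stayed between 3.23 and 4.56, and in the former tumor 2 read highest, at 4.19. In the fit across all 8498 genes, Pax6 was higher in tumor 1 by 1.26 on the log2 scale (SE 0.22, limma adjusted p = 0.0317), with 9.78 in tumor 1 and a mean of 8.52 in the other 3. The same call was made for 1.05% of all genes. It was lost when the floor was raised to the 50th percentile (limma adjusted p = 0.0970), with no filter on the mean (0.305), with quantile normalization (0.0508) and with no intensity trend (0.0577).

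**Figure D2:**
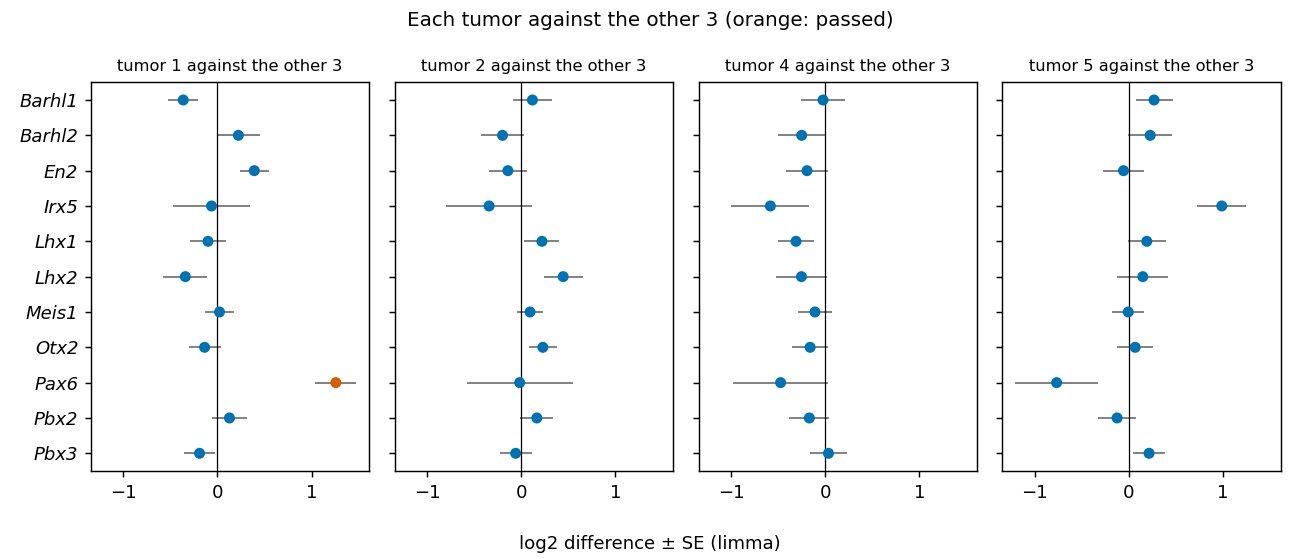
Difference of each tumor from the mean of the other 3, on the log2 scale, with its standard error from limma, for the 11 members that passed the filter on the mean; orange marks a member past the threshold. Pax6 in tumor 1, at 1.26, is the 1 member that passed.

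Some markers of granule cells, of Purkinje and other GABAergic neurons and of glia also passed higher in tumor 1, while others read lower there. Atoh1, the progenitor gene of granule cells, read 9.92 in tumor 1 and 10.54, 10.81 and 10.90 in the others, and the glial gene Gfap read 6.55 against 7.52, 7.69 and 7.40. Gfap went against most of its list: of 10 glial genes, only Gfap and Fabp7 lay below the mean of the other tumors in tumor 1. The median log2 difference of these 10 was 0.62. Of 11 granule lineage genes, 8 were on in all 4 tumors, against 69.2% of all genes. Cntn2, an adhesion molecule of postmitotic granule cells, passed in tumor 1 (log2 difference 1.12, SE 0.19). The summed linear signal of the 11 was 11419, 8484, 9360 and 9134 in tumors 1, 2, 4 and 5. All of the 11 but Atoh1 and Zic1 were highest in tumor 1, though Zic2 and Zic4 exceeded the mean of the others by only 0.33 and 0.31. The share of all genes that were highest in tumor 1 was not counted, so this is not read as a tally. Gabra6 read 9.33, 3.43, 5.14 and 4.01, and Cbln3 8.97, 3.60, 5.65 and 4.23. Neurod2 read 6.23, 4.28, 4.73 and 4.78. The means of Gabra6, Cbln3 and Neurod2 lay under the filter, so they were not tested. Of 9 Purkinje and GABAergic genes the sum was 3736, 475, 602 and 324, and Car8, a Purkinje cell gene, passed in tumor 1. Calb1, Gad1, Pcp4 and Rora passed as well, but reached the filter on the mean only through tumor 1, so their passing is not read as a tally. The same holds for the glial gene Gdf10 and the unipolar brush cell gene Calb2, whereas the glial gene Gjb6 reached the filter in the other tumors too. Foxp2, also of the Purkinje list, was highest in tumor 2, and Gad2 was below the floor in every tumor. The part of these cells in the Pax6 difference was not tested.

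Of the LIM factors that were on, neither was highest in tumor 1. Lhx1, which Purkinje cells express, read 8.79, 9.03, 8.63 and 9.01 by 1450428_at (8.86 ± 0.19, SD, n = 4) and 7.97, 8.23, 7.93 and 7.77 by 1421951_at (7.97 ± 0.19, SD, n = 4). Tumor 1 lay within the range of the other tumors by both probe sets, with a difference of -0.10 (SE 0.19, limma adjusted p = 0.921). Lhx5, the other Purkinje LIM factor, read 3.02, 2.83, 1.43 and 2.00, below the floor throughout. Lhx2, a LIM factor of forebrain and eye that also acts in hindbrain neurons, read 7.14, 7.73, 7.20 and 7.50 (7.39 ± 0.27, SD, n = 4).

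**Figure D3:**
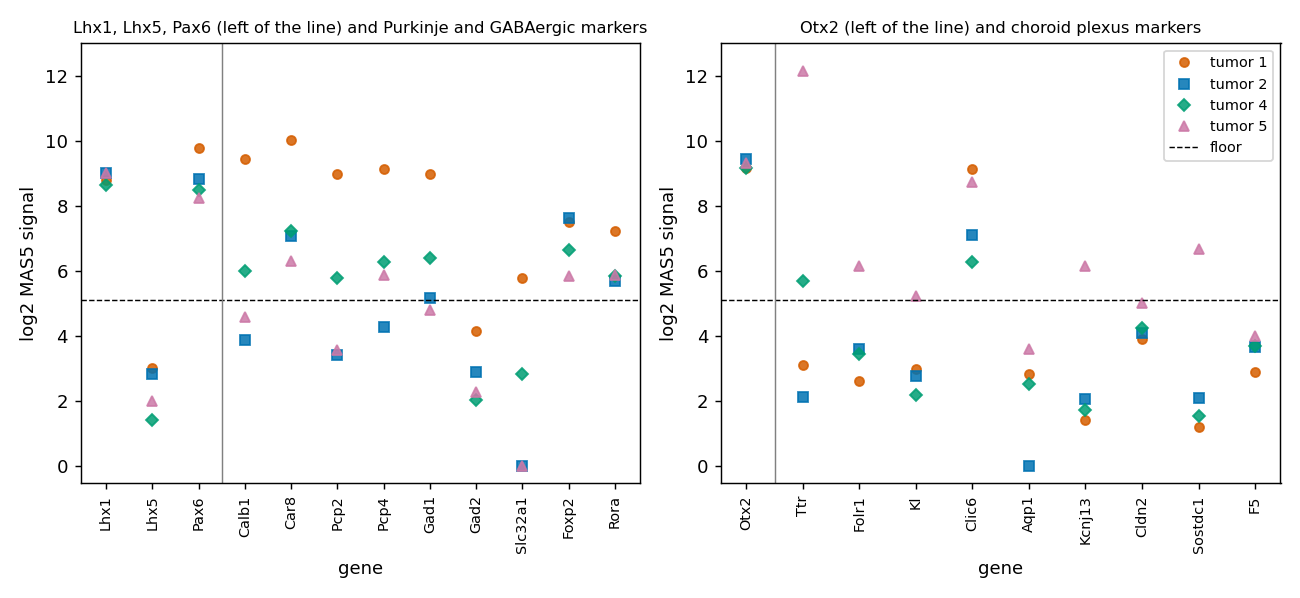
Log2 MAS5 signal by tumor of Lhx1, Lhx5 and Pax6 beside 9 Purkinje and GABAergic markers (left) and of Otx2 beside 9 choroid plexus markers (right); the dashed line is the floor of 5.12. Purkinje markers such as Calb1 stand highest in tumor 1 and Ttr reaches 12.16 in tumor 5, whereas Lhx1 stays between 8.63 and 9.03 and Otx2 between 9.16 and 9.46.

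The Meis and Pbx genes encode TALE homeodomain proteins that bind DNA together with Hox and other homeodomain factors. Meis1 had the smallest spread of any member that was on, with 9.37, 9.42, 9.27 and 9.35 in tumors 1, 2, 4 and 5 by 1450992_a_at (9.35 ± 0.06, SD, n = 4). Of the probe sets on in all 4 tumors and within 0.5 of that mean, 7.84% had a smaller SD. Its other probe sets did not repeat this: 1443260_at read 5.85, 6.39, 5.50 and 5.53, and 1459423_at stayed below the floor, between 2.72 and 3.57.

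Pbx3 read 9.58, 9.68, 9.75 and 9.89 by 1447640_s_at (9.73 ± 0.13, SD, n = 4) and 7.75, 7.95, 7.98 and 8.24 by 1421193_a_at. Both probe sets put the tumors in the same order, tumor 5 highest and tumor 1 lowest, within 1.40-fold. Pbx2 read 7.70, 7.73, 7.48 and 7.51 by 1418893_at (7.61 ± 0.13, SD, n = 4). Its other probe sets, 1418894_s_at and 1449261_at, crossed the floor and read between 4.61 and 6.22, each highest in tumor 2. No Meis or Pbx gene passed in any tumor, which does not show that their levels were steady.

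The Iroquois genes, which divide neural territories and lie in 2 clusters, differed in their calls, with 2 on in all 4 tumors, 2 on in some and Irx6 on in none. Irx1 read 4.90, 5.61, 5.85 and 6.47 in tumors 1, 2, 4 and 5, and Irx2, its neighbour on chromosome 13 with no protein-coding gene between them, read 4.71, 5.32, 5.51 and 6.23. Both were below the floor in tumor 1 and highest in tumor 5, which exceeded tumor 1 by at least 2.55-fold for Irx1 and at least 2.15-fold for Irx2. In the cluster on chromosome 8, Irx3 read 6.00, 5.48, 5.67 and 5.55 (5.68 ± 0.23, SD, n = 4), Irx5 read 5.96, 5.75, 5.57 and 6.75 (6.01 ± 0.52, SD, n = 4), and Irx6 was off. Irx5 was highest in tumor 5 and Irx3 in tumor 1, so these neighbours did not share an order. Irx5 in tumor 5 differed by 0.99 (SE 0.26), which did not pass (limma adjusted p = 0.957, unadjusted p = 0.00647). Without tumor 1 it passed (difference 1.09, limma adjusted p = 0.00818), but in both fits Irx5 reached the filter on the mean only through tumor 5. Irx3, with a mean of 5.68, did not reach the filter of 5.87 and was not tested.

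Pax3, a paired box gene of dorsal neural tube and early cerebellar progenitors, was on in tumors 2, 4 and 5. It read 4.09, 5.38, 6.17 and 6.57 by 1441743_at, 3.64, 4.78, 5.69 and 6.22 by 1420389_at, and 3.79, 4.20, 5.39 and 5.97 by 1430335_a_at. All 3 put tumor 5 highest, then tumors 4, 2 and 1, and tumor 5 exceeded tumor 1 by at least 2.73-fold, 2.14-fold and 1.81-fold. On the linear scale 1441743_at read 17.0, 41.6, 72.1 and 94.8. Lhx3, a LIM factor of motor neurons and pituitary, read 3.51, 4.11, 5.25 and 5.62 by 1425041_at, in the same order, and between 2.26 and 3.96 by 1421753_a_at, below the floor.

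Pax3, with a mean of 5.55, Irx1, Irx2 and Lhx3 did not reach the filter of 5.87, so they were not tested in the fit above. In a fit with no filter and no floor, chosen after seeing the data, signals below the floor entered as deposited, so its differences are not sizes of a change. There, Pax3 in tumor 1 differed by -1.95 (SE 0.44, limma adjusted p = 0.0947), Irx1 by -1.08 (SE 0.35, 0.253), Irx2 by -0.98 (SE 0.38, 0.351) and Lhx3 by -1.49 (SE 0.56, 0.332). None passed. The order of tumors 5, 4, 2 and 1 was picked from the values of these same members. Counts of it, or of its opposite, among the members are therefore no test of a shared order. It held in 6 of the 13 member probe sets with a range of 2-fold or more and a signal above the floor, 3 of them of Pax3. Of the 1826 such probe sets of all genes, it held in 3.72%. The opposite order held in 3 of the 13, all of Pax6, and in 13.8% of the 1826. The 25th percentile of all probe sets lay between 3.79 and 4.07 on the 4 arrays. Skeletal muscle progenitors also express Pax3, and the other muscle gene measured, Acta1, was below the floor in every tumor. The part of muscle cells in the Pax3 signal was not tested.

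**Figure D4:**
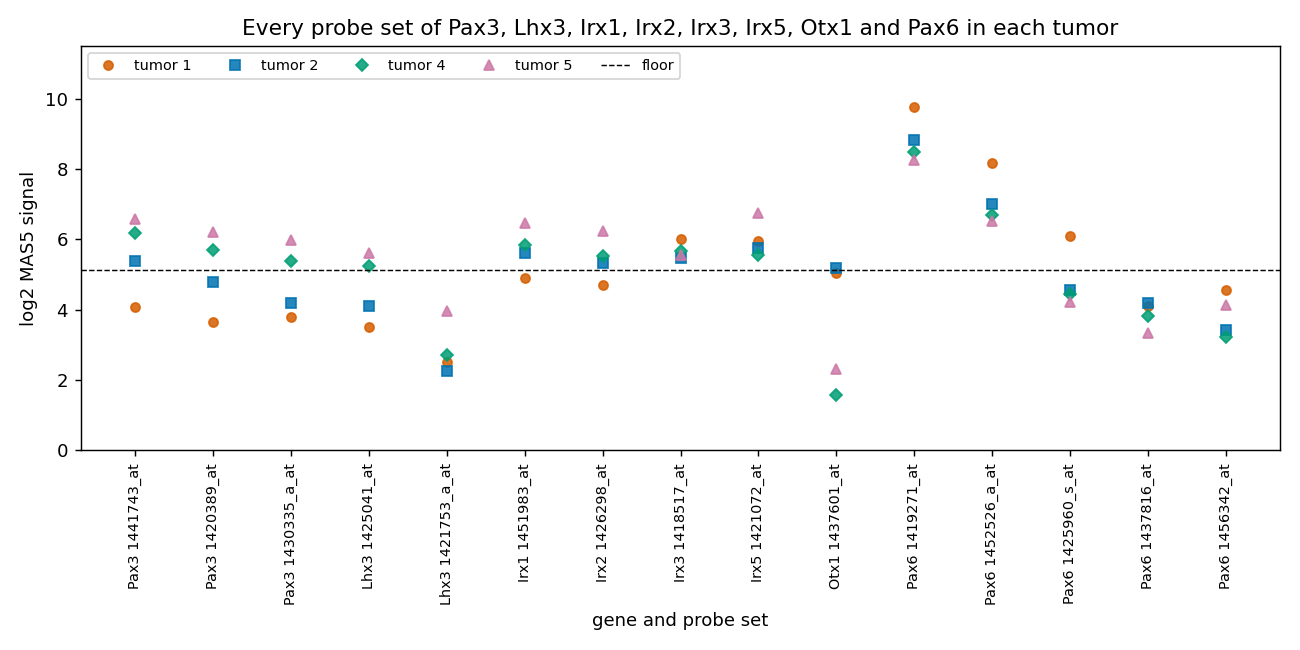
Log2 MAS5 signal of every probe set of 8 genes in each tumor; markers are tumors and the dashed line is the floor of 5.12. Tumor 5 is highest and tumor 1 lowest in the 3 probe sets of Pax3, whereas tumor 1 is highest in the 3 brightest of Pax6.

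Among all 17 member probe sets on in all 4 tumors, the SD over tumors had a median of 0.20, from 0.06 in Meis1 to 0.75 in Pax6, against a median of 0.18 over the 15054 probe sets of all genes that were on. The SD of 4 of the 17 lay below that median. A range of 2-fold or more was seen in 3 of the 17 (17.6%), 2 of Pax6 and 1 of Irx5, against 5.11% of all probe sets that were on. Of probe sets with a like mean, 99.2% had a smaller SD than Pax6 by 1419271_at and 95.03% a smaller SD than Irx5, whereas for Otx2 the share was 42.0%.

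**Figure D5:**
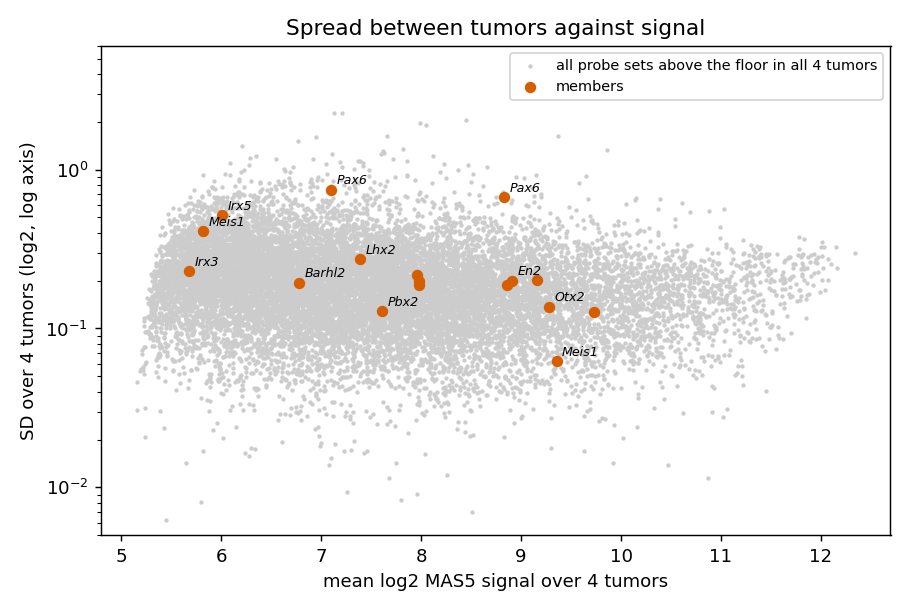
SD over the 4 tumors (log2, on a log axis) against mean log2 MAS5 signal, for all 15054 probe sets with a single gene that were above the floor in all 4 tumors (grey) and for the 17 of the members (orange). Pax6 lies at the upper edge of the cloud, at an SD of 0.67 and 0.75, and Meis1 low in it, at 0.06.

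In the fits of each tumor against the other 3, 11 members were tested. In tumor 1, 1 passed higher and 0 lower (all genes: 1.05% higher and 0.247% lower), 5 were higher and 6 lower, and the median difference was -0.06, beside -0.04 over all genes. No member passed in tumors 2, 4 and 5, where 0.0% of all genes passed in limma, and 0, 0 and 1 of the 11 members had an unadjusted p under 0.05, the last being Irx5. Over all genes that share was 5.84%, 0.553% and 3.60%, and in tumor 1 it was 11.2%, with 2 members, Pax6 and En2. In tumor 4, 10 of the 11 were lower, with a median of -0.19 against 0.00 over all genes. The medians in tumors 2 and 5 were 0.09 and 0.15, against -0.02 and 0.04. These fits share tumors and treat a lone tumor as varying like the rest, so they show only whether it lies outside the spread of the others.

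Genes that act upstream of these families were read from lists. Of 8 measured genes of border signalling and segment control, 5 were on in all 4 tumors, among them the FGF targets Spry1, Spry2, Dusp6 and Etv5 and the segment gene Egr2. Of 19 measured genes of the Polycomb and trithorax groups and other Hox chromatin regulators, 17 were on in all 4, and Pcgf2 and Cbx7 were on in none. Ezh2, the histone methyltransferase of Polycomb, read 10.11, 10.36, 10.29 and 10.09, and Kmt2a, the trithorax methyltransferase, 7.02, 7.02, 6.66 and 6.15. Of 9 measured retinoic acid genes, 7 were on in all 4. These counts stand beside 69.2% of all genes on in all 4 tumors. None of the 5, 16 and 5 genes tested of these lists passed in limma in any tumor. An unadjusted p under 0.05 was seen for Egr2, Aldh1a1 and Aldh1a2 in tumor 1, Aldh1a1 in tumor 2, and Etv5 and Kmt2a in tumor 5, with the shares over all genes as given above.

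Of the markers of neighbouring brain regions, Six3 and Dlx2 of forebrain and Isl1 of motor and sensory neurons were below the floor in every tumor, and Slc17a6, a glutamate transporter of brainstem and early granule neurons, Tlx3 and Nr4a2 were on in all 4. The summed signal of 3 brainstem genes lay between 329 and 662, highest in tumor 1, and that of 4 midbrain and forebrain genes between 222 and 274. Of 10 genes of meninges and mesenchyme, 6 were on in all 4, against 69.2% of all genes. The summed signal of the 10 lay between 1954 and 2528. Most of it was Pdgfra, at 10.19, 10.77, 10.48 and 10.31 in tumors 1, 2, 4 and 5, and both were highest in tumor 2. Col1a2, Col3a1 and Igf2 were highest in tumor 1, and Dcn and Lum in tumor 5. Of 3 B cell genes, Ebf1, which neural and stromal cells also express, was on in all 4 (7.78 to 8.83), Ighm was above the floor in tumor 4 only, at 5.42, and Cd79b was on in none. Their part in the member signals was not tested.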

How the data were processed

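Per the submitters' processing notes the signals came from MAS5, which summarizes and scales every array separately. The deposited values are log2 signals, and no detection calls were used. Its version was not given in the sources used here, nor was the target of its scaling. The table held 29304 probe sets, of which 61 controls were left out after a first fit that had kept them. Of the rest, 24679 had a single symbol in the platform annotation, 647 several and 3917 none.

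The members and lists were chosen with earlier results of these data known. The on-call was to use the 95th percentile of olfactory receptor probe sets, with the floor in its place if fewer than 50 were present. There were 8, so the floor was used. Log2 values were used as deposited. For the fits they were raised to the floor, probe sets with a mean under the median of all means (5.87) were dropped, and each gene was read by its probe set of highest mean (8498 genes). The fits of 1 tumor against 3 used limma 3.58.1 (R 4.3.3), with lmFit and with eBayes given an intensity trend. Passing meant a Benjamini-Hochberg adjusted p under 0.05 and 2-fold or more. The script was tested on simulated data. Members are named throughout, and list genes where they passed or to describe a list, some of them chosen after their values were seen. The labels do not say that tumors came from separate animals, so p-values measure only the spread between these samples. Alternatives changed the floor, the filter, the normalization and the trend, left out cross-matching probe sets and left out each tumor. The number of arrays limits the precision.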

Additional observations from a re-analysis of the deposited data

How the results depend on the processing

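The count of 12 genes on in all 4 tumors lay between 10 and 16 over the alternatives: 10 with the floor at the 50th or 60th percentile, which leave out Irx3 and Irx5, 16 with the floor at the 25th, and 15 without tumor 1, where Irx1, Irx2 and Pax3 join. The floors at the 25th and 60th percentile were chosen after seeing the data. The count of 3 probe sets with a range of 2-fold or more became 9 and 1 with these floors, and lay between 2 and 3 without a tumor. The median SD of 0.20 lay between 0.194 and 0.245 without a tumor. In tumor 1 the count of 1 passing member, Pax6, became 0 with the floor at the 50th percentile, with no filter, with quantile normalization and with no intensity trend, and stayed at 1 without tumor 2, 4 or 5. In tumor 5 the count of 0 lay between 0 and 1 without a tumor, the 1 being Irx5 without tumor 1. Keeping the control probe sets, as a first fit did, is given as an alternative added after seeing the data: the count of members on was 12 and that passing in tumor 1 was 1. The cause of these changes was not tested. The alternative at the 99th percentile of olfactory receptor probe sets was not run, since 8 were present, and that with the floor at the 40th percentile is the main setting. No paired analysis was possible because the tumors form a single group. Low signals limit what can be read from genes near the floor.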
